A study of Mus musculus with 5 samples.

Results

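The genes described here are 9 members of the fibroblast growth factor (FGF) system that builds the limb bud: the ligand genes Fgf4, Fgf8, Fgf9, Fgf17, Fgf18 and Fgf10 and the receptor genes Fgfr1, Fgfr2 and Fgfr3. They were chosen by name as ligands and receptors of the bud, with earlier results of these data known. All 9 were found among the 23284 gene symbols of the count tables. RNA was counted in 5 mouse forelimb libraries. Both mutant libraries came from the dissected distal E11.5 forelimb of Hoxa13-/-;Hoxd13-/- embryos, which carried on both copies a neomycin cassette in the coding part of Hoxa13 and a lacZ reporter in exon 1 of Hoxd13. Both wild-type libraries came from the same distal part at E11.5, and mutant and wild-type embryos shared a mixed C57BL/6 - CD1 background. A single library came from the E10.5 forelimb bud of CD1 embryos. Per the labels' protocols, each E11.5 genotype was sampled as 2 independent pools of dissected tissue, so n = 2 throughout for each genotype and single embryos are not seen. The protocols also give N = 4 for the tissue samples, and whether that counts one pool or a whole genotype is not stated.

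The apical ectodermal ridge is the thickened rim of ectoderm along the tip of the limb bud, and the FGFs it secretes keep the underlying mesenchyme alive and growing. Fgf8 is made along the whole ridge, while Fgf4, Fgf9 and Fgf17 are made mainly in its posterior part. The mesenchyme answers with FGF10, which signals back through the ectodermal splice form of FGFR2 and sustains the ridge. The ridge FGFs act on mesenchyme mainly through FGFR1 and the mesenchymal splice form of FGFR2. Fgf4 also takes part in a loop in which Shh from the posterior mesenchyme induces the BMP antagonist Grem1, which in turn protects Fgf4 expression.

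In the mutant, 3 ridge ligand genes rose (Fgf4 most, then Fgf17 and Fgf8), and the mesenchymal ligand Fgf10 and the receptor Fgfr2 fell. Fgf9, Fgf18, Fgfr1 and Fgfr3 did not pass the test. In wild-type E11.5 tissue Fgf4 and Fgf8 were at least 2-fold below the E10.5 library, and Fgf9, Fgf18 and Fgfr3 were at least 2-fold above it.

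The promoters of the ligand with the largest rise and of the ligand that fell are shown for the letters just before their start sites. They are the 250 bases before the RefSeq start of Fgf4 (chr7:144861136-144861385, plus strand) and of Fgf10 (chr13:118714449-118714698, plus strand) in GRCm38.p6, a later assembly than the mm9 of the counting. Capitals mark the GC box searched for, GGGCGG or its reverse complement CCGCCC, the kind of site that SP-family factors bind.
Fgf4: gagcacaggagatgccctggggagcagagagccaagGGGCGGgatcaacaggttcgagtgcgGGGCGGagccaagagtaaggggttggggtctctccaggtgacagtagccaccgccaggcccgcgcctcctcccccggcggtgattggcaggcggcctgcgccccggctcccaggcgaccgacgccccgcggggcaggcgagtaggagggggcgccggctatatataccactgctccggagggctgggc
Fgf10: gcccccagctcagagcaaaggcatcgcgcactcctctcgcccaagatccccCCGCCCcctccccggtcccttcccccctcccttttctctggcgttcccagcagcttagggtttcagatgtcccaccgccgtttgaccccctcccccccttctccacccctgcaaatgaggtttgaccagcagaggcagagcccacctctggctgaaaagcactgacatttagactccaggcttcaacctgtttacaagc
The Fgf4 window held 2 GC boxes and the Fgf10 window 1. A GC box stood in 5 of the 7 windows found for 6 members (Fgf4, Fgf9, Fgf18, Fgf10, Fgfr2 and, with 2 starts, Fgfr3) and in 32.7% of all 32851 windows of that length in the table. The HOX13-type motif CAATAAA, on either strand, stood in 1 of the 7, a window of Fgfr3, against 4.2% of all windows. The second HOX13-type motif, TCGTAAA, stood in 0 of the 7 (0.478% of all windows), and the LEF/TCF motif CTTTGAA also in 0 (4.46%). A match or its lack in these windows says nothing of binding, and Fgf8, Fgf17 and Fgfr1 had no window in the search.

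Levels are given as CPM, a gene's count scaled to the library's total of reads counted in genes. These totals ranged from 45115494 to 84172202 per library. Hoxd13 measured 47.7 and 40.0 CPM in the mutant libraries, against 246.97 and 246.14 CPM in the wild-type libraries (log2 fold change -2.50, SE 0.10, with 1.12e-07 as the adjusted p of edgeR's quasi-likelihood test). Hoxa13 measured 47.997 and 39.8 CPM in the mutant libraries and 50.8 and 47.2 CPM in the wild-type libraries. Hoxa13 did not pass the test (log2 fold change -0.17, adjusted p = 0.438 by edgeR). Counts are per gene and do not show where on the gene the reads lie, so the Hoxa13 level does not check the labels. Among 16166 genes tested, 617 were higher and 540 lower in the mutant at an adjusted p below 0.05. That is 7.16% of the genes tested, 3.82% higher and 3.34% lower, and the median log2 fold change of all genes was -0.000819.

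All 9 members passed the filter on low counts. Of these, 3 rose, 2 fell and 4 did not pass the test, beside the 7.16% called among all genes. Their median log2 fold change was 0.32. The CPM values of the mutant and wild-type libraries did not overlap for any of the 9, and 49.5% of all genes tested were separated in this way, so separation alone sets no member apart.

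**Figure D1:**
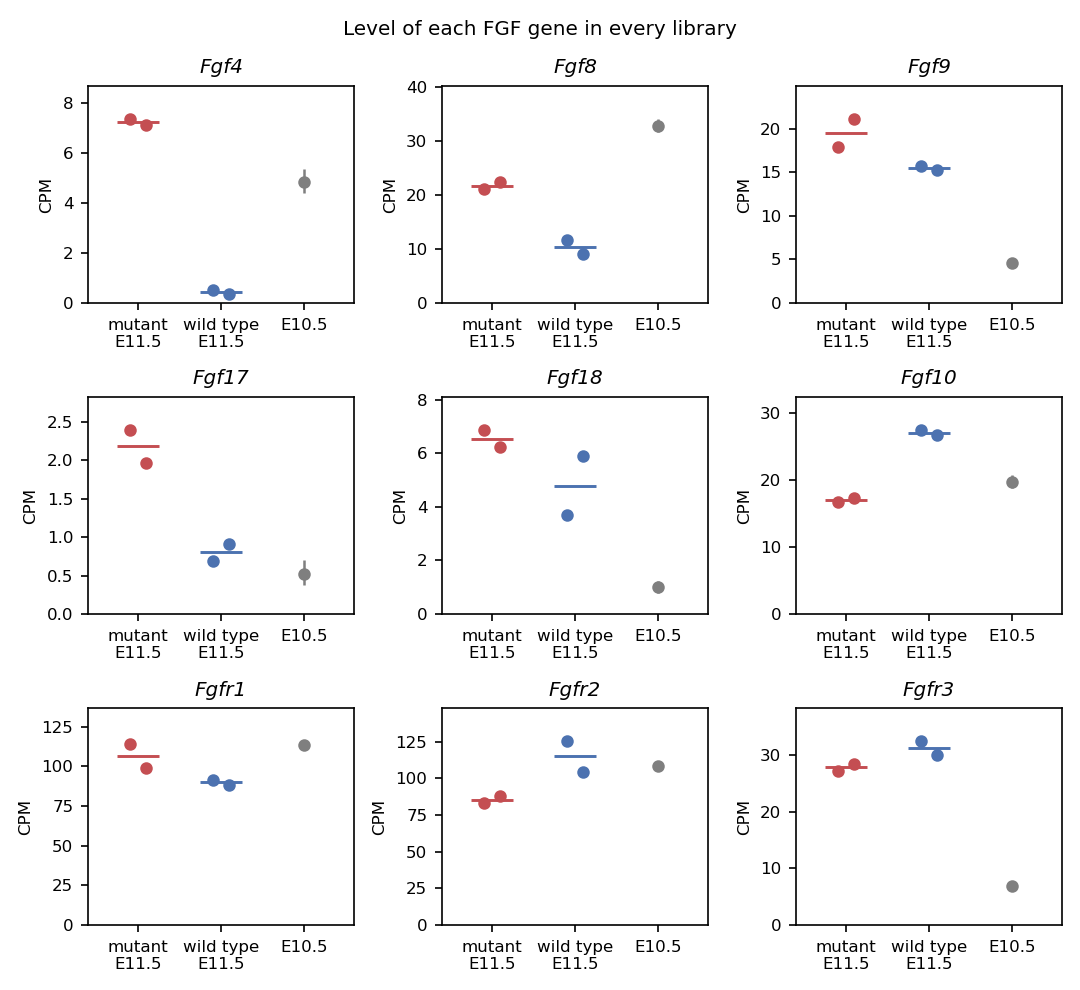
Level of each of the 9 genes in every library, in CPM on linear axes from 0. Points are libraries, horizontal bars are the means of the 2 libraries of a genotype, and the vertical line at E10.5 is the exact 95% Poisson interval of that single library; Fgf4 is near 0 only in wild type at E11.5, and Fgf10 is lower in the mutant than in wild type.

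Among the ridge ligands, Fgf4 had the largest change. Fgf4 encodes a ridge factor that is normally restricted to the posterior ridge and is lost from it as the bud grows. It was counted 440 and 344 times in the mutant libraries (7.35 and 7.12 CPM), against 23 and 20 times in the wild-type libraries (0.510 and 0.358 CPM). The E10.5 library held 408 Fgf4 reads, or 4.85 CPM with an exact 95% Poisson interval of 4.39 to 5.34. Mutant libraries were thus the highest of the 5 and wild-type E11.5 libraries the lowest, with no overlap. The mean was 7.24 ± 0.164 CPM in the mutant and 0.434 ± 0.107 CPM in wild type (SD, n = 2 each). In the edgeR fit the difference was 16.6-fold with a 95% interval of 11.4 to 24.4 (log2 fold change 4.06, SE 0.25, adjusted p = 1.79e-06 by edgeR).

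Fgf8, the main ridge signal for outgrowth, measured 21.1 and 22.3 CPM in the mutant libraries, against 11.6 and 9.13 CPM in the wild-type libraries. The E10.5 library stood above all of them at 32.8 CPM (95% interval 31.6 to 34.1). The mutant values lay between the wild-type E11.5 values and the E10.5 value. The Fgf8 rise in the mutant was 2.08-fold (95% interval 1.71 to 2.55; log2 fold change 1.06, SE 0.13, adjusted p = 0.000396 by edgeR).

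Fgf17, a close relative of Fgf8 and a minor ridge signal, measured 2.39 and 1.97 CPM in the mutant libraries (143 and 95 reads), against 0.687 and 0.913 CPM in the wild-type libraries (31 and 51 reads). At E10.5 it stood at 0.523 CPM (95% interval 0.380 to 0.702), so only the mutant libraries were high. The rise was 2.67-fold (95% interval 1.70 to 4.20; log2 fold change 1.42, SE 0.30, adjusted p = 0.0134 by edgeR). Without mutant replicate 1 the log2 fold change was 1.27 and the edgeR adjusted p 0.0678, so the call of Fgf17 needs that library.

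Fgf9, a ridge ligand that is also made by other embryonic epithelia, measured 17.9 and 21.1 CPM in the mutant libraries, against 15.7 and 15.3 CPM in the wild-type libraries. Its E10.5 level was 4.65 CPM (95% interval 4.20 to 5.13), the lowest of the 5 libraries. The mutant to wild-type difference was not called (log2 fold change 0.32, 95% interval 0.05 to 0.59, adjusted p = 0.165 by edgeR). A rise up to 1.50-fold lies within that interval, which is not adjusted for the number of genes tested.

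Fgf18, grouped with Fgf8 and Fgf17 by sequence and known for its part in cartilage and bone growth, measured 6.87 and 6.23 CPM in the mutant libraries, against 3.70 and 5.89 CPM in the wild-type libraries. The wild-type libraries differed from each other by more than the closer one differed from the mutant. Fgf18 did not pass the test (log2 fold change 0.42, 95% interval -0.06 to 0.91, adjusted p = 0.334 by edgeR). This value rests on the wild-type library chosen: the log2 fold change was 0.84 (adjusted p = 0.0187) without wild-type replicate 2 and 0.11 (adjusted p = 0.748) without wild-type replicate 1, both by edgeR. At E10.5 Fgf18 was at 0.998 CPM (95% interval 0.796 to 1.24), below every E11.5 library.

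Fgf10, the mesenchymal ligand, went the other way. It measured 16.7 and 17.4 CPM in the mutant libraries, against 27.5 and 26.7 CPM in the wild-type libraries, and 19.8 CPM at E10.5 (95% interval 18.8 to 20.8). The wild-type E11.5 libraries were the highest of the 5 and the mutant libraries the lowest. Fgf10 averaged 17.0 ± 0.491 CPM in the mutant and 27.1 ± 0.552 CPM in wild type (SD, n = 2 each). The ratio of mutant to wild type in the edgeR fit was 0.623 (95% interval 0.530 to 0.733, log2 fold change -0.68, SE 0.11, adjusted p = 0.00195 by edgeR). In bulk tissue, fewer cells of a type and less RNA per cell cannot be told apart, and this holds for every gene here.

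**Figure D2:**
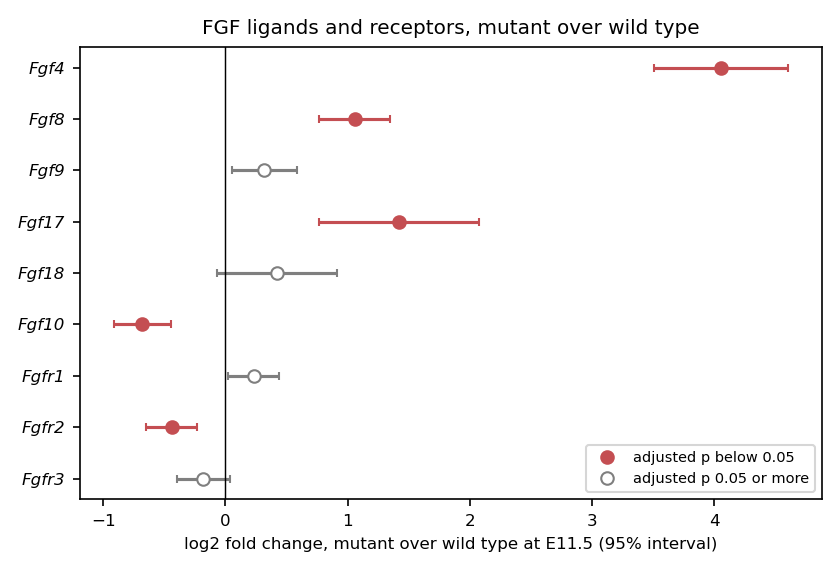
Log2 fold change of each gene, mutant over wild type at E11.5, with its 95% interval from the edgeR fit over all genes (horizontal axis). Filled points passed an adjusted p of 0.05: Fgf4 (4.06), Fgf8 (1.06) and Fgf17 (1.42) to the right of 0, Fgf10 (-0.68) and Fgfr2 (-0.44) to the left.

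Of the receptors, Fgfr2 fell and the others did not pass the test. Fgfr2, whose ectodermal splice form binds FGF10, measured 83.3 and 87.9 CPM in the mutant libraries, against 125.5 and 104.8 CPM in the wild-type libraries. The E10.5 library was at 108 CPM, among the wild-type values and above both mutant values in plain CPM. With TMM scaling it also lay above both wild-type libraries, which differed from it by -0.04 and -0.27 in log2. The Fgfr2 ratio of mutant to wild type was 0.737 (95% interval 0.638 to 0.852, log2 fold change -0.44, SE 0.10, adjusted p = 0.0154 by edgeR). Without mutant replicate 1 the log2 fold change was -0.40, and the call ended. The counts are per gene, so the ectodermal and mesenchymal splice forms of Fgfr2 were not separated.

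Fgfr1, the main receptor of ridge FGFs in mesenchyme, measured 114.2 and 98.8 CPM in the mutant libraries, against 91.4 and 88.4 CPM in the wild-type libraries and 113.6 CPM at E10.5. Its log2 fold change was 0.23 (95% interval 0.02 to 0.44, adjusted p = 0.198 by edgeR). Fgfr3, a receptor of developing cartilage that restrains bone growth, measured 27.2 and 28.6 CPM in the mutant libraries, against 32.5 and 30.0 CPM in the wild-type libraries. Its log2 fold change was -0.18 (95% interval -0.40 to 0.04, adjusted p = 0.368 by edgeR). At E10.5 Fgfr3 was at 6.93 CPM (95% interval 6.38 to 7.51), below every E11.5 library.

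Levels of different genes were compared after division by transcript length, the union of protein-coding exons in GENCODE vM21, which may differ from the gene models used in the counting. In the mutant the order in CPM per kb was Fgfr1 (20.4 ± 2.08), Fgfr2 (16.7 ± 0.648), Fgf8 (16.1 ± 0.627), Fgfr3 (6.34 ± 0.222), Fgf18 (5.52 ± 0.380), Fgf9 (4.34 ± 0.498), Fgf10 (4.14 ± 0.119), Fgf4 (2.39 ± 0.0541) and Fgf17 (1.29 ± 0.177). Libraries overlapped between Fgfr2 and Fgf8 and between Fgf9 and Fgf10, so these neighbours in the mutant order were not separated. In wild type at E11.5 the order was Fgfr2 (22.5 ± 2.87), Fgfr1 (17.2 ± 0.417), Fgf8 (7.68 ± 1.29), Fgfr3 (7.11 ± 0.403), Fgf10 (6.58 ± 0.134), Fgf18 (4.04 ± 1.30), Fgf9 (3.45 ± 0.0595), Fgf17 (0.474 ± 0.0947) and Fgf4 (0.143 ± 0.0354), all in CPM per kb. There the pairs Fgf8 with Fgfr3 and Fgf18 with Fgf9 overlapped.

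At E10.5 the order in CPM per kb was Fgf8 (24.3), Fgfr1 (21.8), Fgfr2 (21.2), Fgf10 (4.81), Fgf4 (1.60), Fgfr3 (1.57), Fgf9 (1.03), Fgf18 (0.841) and Fgf17 (0.309). The counting intervals of Fgfr1 (21.4 to 22.2) and Fgfr2 (20.8 to 21.6) overlapped, as did those of Fgf4 and Fgfr3 and those of Fgf9 and Fgf18. Per length, Fgf8 was the highest of the 6 ligands in each library, and Fgf4 or Fgf17 the lowest. In wild-type replicate 2 the gap was small, with Fgf8 at 6.765 and Fgf10 at 6.486 CPM per kb. It rests on the lengths used, since in plain CPM Fgf10 lay above Fgf8 in both wild-type libraries.

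The make-up of the 4 ridge ligands was set out on the same scale. Their summed level was 23.5 and 24.8 CPM per kb in the mutant libraries, 12.7 and 10.8 in the wild-type E11.5 libraries and 27.2 at E10.5. The share of Fgf4 in this sum was 10.3% and 9.49% in the mutant libraries, against 1.33% and 1.09% in the wild-type libraries, and 5.87% at E10.5. The share of Fgf8 was 66.7% and 66.8% in the mutant libraries, 67.9% and 62.5% in the wild-type libraries and 89.2% at E10.5. For every Fgf4 read there were 2.88 and 3.14 Fgf8 reads in the mutant libraries, 22.7 and 25.5 in the wild-type libraries and 6.77 at E10.5. This ratio within a library does not depend on depth, and its groups did not overlap. Fgf9 made up 17.0% and 19.0% in the mutant libraries, against 27.6% and 31.4% in the wild-type libraries and 3.79% at E10.5. Fgf17 made up 6.02% and 4.70% in the mutant libraries, against 3.22% and 4.99% in the wild-type libraries and 1.14% at E10.5. These shares have no test.

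**Figure D3:**
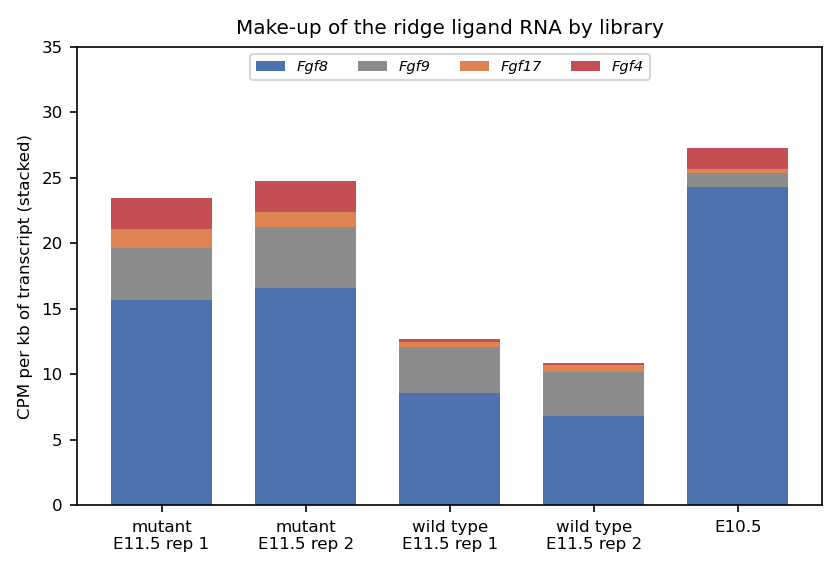
Stacked bars of the 4 ridge ligand levels, in CPM per kb of transcript, in each of the 5 libraries. The bars reach 23.5 and 24.8 in the mutant libraries, 12.7 and 10.8 in the wild-type libraries and 27.2 at E10.5, with a visible Fgf4 segment in the mutant and E10.5 libraries.

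Between stages, each E11.5 library was set against the single E10.5 library in log2 TMM-scaled CPM, and a gene was called when both libraries of a genotype lay at least 2-fold to the same side. With 1 library at E10.5 there is no test of these differences. Stage, dissected part (distal tissue against the bud) and strain label changed together and cannot be told apart. By this rule the mutant E11.5 libraries were higher than E10.5 in 4 members (Fgf9, Fgf17, Fgf18 and Fgfr3) and lower in 0, and 14.5% of all genes were called higher and 4.13% lower. The wild-type E11.5 libraries were higher in 3 (Fgf9, Fgf18 and Fgfr3) and lower in 2 (Fgf4 and Fgf8), and 12.9% of all genes were called higher and 3.86% lower. Both genotypes share the same E10.5 library.

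In wild type the ligands with the largest mean stage differences were Fgf4, Fgf18 and Fgf8. Fgf4 differed from E10.5 by 0.35 and 0.29 in the mutant libraries, against -3.41 and -3.85 in the wild-type libraries, where its mean level was 12.4-fold below E10.5. Fgf8 differed by -0.88 and -0.82 in the mutant libraries, short of 2-fold, and by -1.75 and -2.06 in the wild-type libraries, 3.75-fold below E10.5 on average. Fgf18 differed by 2.50 and 2.35 in the mutant libraries, and by 1.61 and 2.31 in the wild-type libraries.

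Among the other ligands, Fgf9 differed by 1.69 and 1.91 in the mutant libraries and by 1.49 and 1.50 in the wild-type libraries. Fgf17 differed by 1.88 and 1.59 in the mutant libraries, and by 0.13 and 0.56 in the wild-type libraries, where it was not called. Fgf10 lay on opposite sides of E10.5, at -0.50 and -0.45 in the mutant libraries and at 0.22 and 0.21 in the wild-type libraries, all short of 2-fold.

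Of the receptors, Fgfr3 was called in both genotypes. It differed from E10.5 by 1.72 and 1.78 in the mutant libraries and by 1.97 and 1.89 in the wild-type libraries. Fgfr1 had -0.25 and -0.46 in the mutant libraries and -0.57 and -0.58 in the wild-type libraries. Fgfr2 had -0.63 and -0.56 in the mutant libraries, and -0.04 and -0.27 in the wild-type libraries. With scaling by library size only, the mean wild-type difference of Fgfr2 was 0.08 in place of -0.15, so its sign depends on the scaling. That scaling moved the median of all genes to 0.28 for the mutant and to 0.25 for wild type, in place of 0.02 for each.

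**Figure D4:**
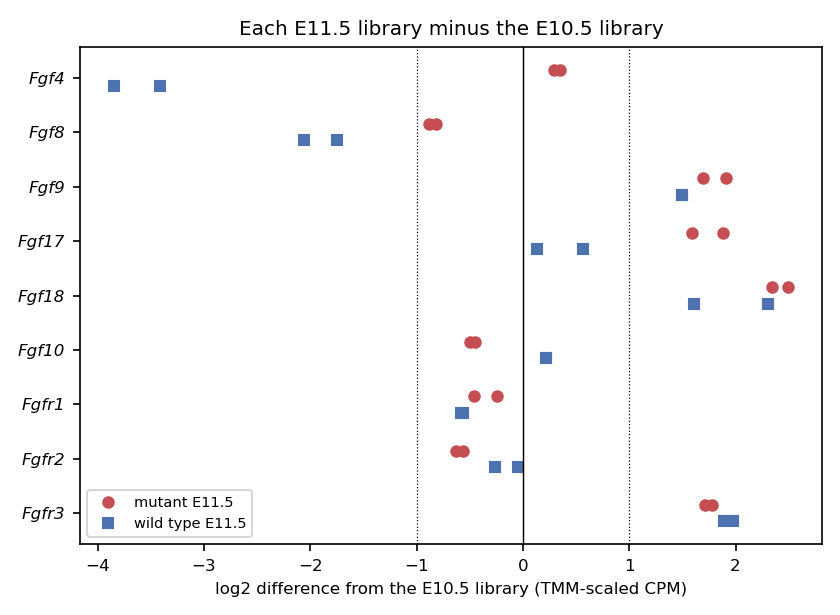
Log2 difference of each E11.5 library from the single E10.5 library, in TMM-scaled CPM (horizontal axis), with mutant libraries as circles and wild-type libraries as squares. Dotted lines mark 2-fold; the wild-type libraries lie left of them for Fgf4 and Fgf8, and both genotypes lie right of them for Fgf9, Fgf18 and Fgfr3.

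Of 22 other FGF ligand, receptor, co-receptor and binding protein genes, 14 were tested, 0 rose and 1 fell, a share near the 7.16% called among all genes, and their median log2 fold change was 0.13. Before adjustment, 1 of the 14 was higher and 3 were lower at an edgeR p below 0.05, and DESeq2 called 0 risen and 1 fallen. The gene that fell was Fgf13, an intracellular FGF homologue that acts on sodium channels and microtubules, at 2.69 and 3.04 CPM in the mutant libraries, against 4.88 and 5.52 CPM in the wild-type libraries (log2 fold change -0.88, adjusted p = 0.0203 by edgeR). Of 15 genes induced by FGF signalling or feeding back on it, 3 rose and 0 fell by edgeR, with a median of 0.05. Before adjustment 4 of the 15 were higher and 2 lower at an edgeR p below 0.05, and DESeq2 called 3 risen and 0 fallen. Dusp6, a phosphatase that shuts off ERK, measured 501 and 464 CPM in the mutant libraries, against 269 and 295 CPM in the wild-type libraries (log2 fold change 0.76). The membrane inhibitor Il17rd (0.55) and the ERK pathway inhibitor Spred1 (0.36) also rose, while Spry4 (-0.07), Etv4 (-0.25) and Etv5 (-0.20), which also respond to FGF, did not pass the test. Spry1 (0.34) and Spry2 (0.12), also not called, lay above 0, as did 8 of the 15 genes in all. Spry1, Spry2, Spry4, Etv4 and Etv5 were chosen after their values were seen. Leaving out mutant replicate 1 (edgeR adjusted p = 0.139) ended the call of Fgf13, as did leaving out wild-type replicate 2 (0.0552), and that of Spred1 ended without mutant replicate 1 (0.149), mutant replicate 2 (0.148) or wild-type replicate 2 (0.0576).

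In the list of Shh, Grem1 and BMP genes 3 of 12 rose and 1 fell, with a median of 0.23. Among all genes 3.82% were called higher and 3.34% lower. The lists share genes, among them Hand2, Twist1, Sp6 and Bmp4, so the same call can count in several lists. Shh, the posterior signal of the loop with Fgf4, measured 7.44 and 5.61 CPM in the mutant libraries, against 1.66 and 1.86 CPM in the wild-type libraries, and 6.83 CPM at E10.5. Like Fgf4, it was low only in wild type at E11.5. Grem1, the BMP antagonist of the loop, measured 65.5 and 61.3 CPM in the mutant libraries, against 38.8 and 37.6 CPM in the wild-type libraries and 37.9 CPM at E10.5. The hedgehog repressor Gli3 rose (0.77) and Hand2, which promotes Shh expression, fell (-0.48). Among 14 genes that act upstream of Fgf8 or Fgf10, 1 rose and 2 fell, beside the same shares of all genes. Their median was -0.11. The called genes were Sall1 (0.84), a zinc finger transcription factor, which rose, and Twist1 (-0.48), a mesenchymal transcription factor, and Sp6 (-0.81), a ridge transcription factor, which fell. Tbx5, which switches on Fgf10 in the forelimb field, had 0.07 (adjusted p = 0.788 by edgeR, chosen after its value was seen). The edgeR calls of Hand2 (adjusted p = 0.181) and Twist1 (0.104) ended without mutant replicate 2.

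**Figure D5:**
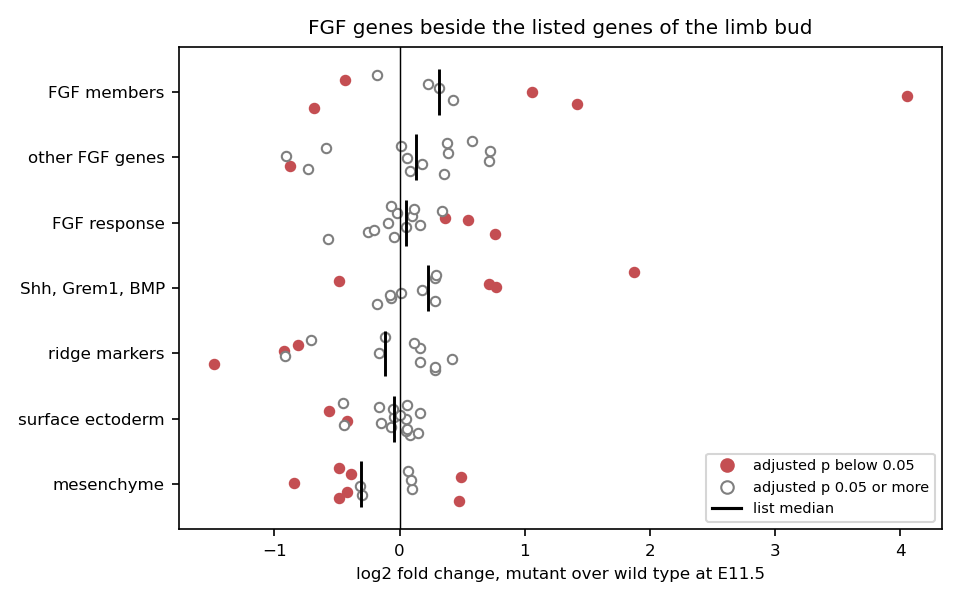
Log2 fold change, mutant over wild type at E11.5, for the tested genes of 7 lists, 1 point per gene, with the list median as a vertical bar; filled points passed an adjusted p of 0.05. Fgf4 (4.06) lies furthest right, and the median is 0.32 for the FGF members and -0.12 for the ridge markers.

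Sp6, Dlx2 and Msx2 fell among the ridge markers other than FGFs. Of 13 such genes 0 rose and 3 fell, beside the 7.16% called among all genes, with a median log2 fold change of -0.12. Before adjustment 1 of the 13 was higher and 5 were lower at an edgeR p below 0.05, and DESeq2 called 0 risen and 3 fallen. The log2 fold changes of the fallen transcription factor genes were -0.81 for Sp6, -1.48 for Dlx2 and -0.93 for Msx2, which is also made in mesenchyme and responds to BMP. The summed level of the 13 was 228 and 204 CPM in the mutant libraries, against 242 and 218 CPM in the wild-type libraries, and 214 CPM at E10.5. Bmp4, a BMP ligand also made in mesenchyme, had the highest level of the 13 in each library, at 98.0 and 83.6 CPM in the mutant libraries, against 76.7 and 71.5 CPM in the wild-type libraries. Without Bmp4, a choice made after its values were seen, the other 12 summed to 130.4 and 120.3 CPM in the mutant libraries, against 165.4 and 146.9 CPM in the wild-type libraries. The sums of all 13 overlapped between the genotypes, and 6 of the 13 genes had a log2 fold change above 0. With Bmp4 left out, and not with it kept, the sums were lower in both mutant libraries than in both wild-type libraries. Msx2, also made in mesenchyme, was kept in the 12. It measured 26.1 and 21.5 CPM in the mutant libraries, against 48.6 and 41.3 CPM in the wild-type libraries. The fall of Msx2 is thus counted in the lower sum of the 12, and no sum without it was taken. Surface ectoderm markers summed to 394 and 424 CPM in the mutant libraries, against 424 and 425 CPM in the wild-type libraries, where 2 of 17 fell, the keratins Krt8 (-0.56) and Krt14 (-0.42), and 0 rose by edgeR, by DESeq2 and at an edgeR p below 0.05 before adjustment. Before adjustment 4 of the 17 were lower. The 7.16% called among all genes stands beside the ectoderm calls too. The ectoderm sums overlapped between the genotypes, and each gene of both lists had a count in at least 1 library. The part of ridge and ectoderm content in the FGF values was not tested. Leaving out mutant replicate 2 (edgeR adjusted p = 0.0587) ended the call of Dlx2, as did leaving out wild-type replicate 1 (0.0696). That of Krt8 ended without mutant replicate 1 (0.0962), mutant replicate 2 (0.0512) or wild-type replicate 2 (0.0662), and that of Krt14 without mutant replicate 1 (0.313) or wild-type replicate 2 (0.0831) and with library size only (0.0552).

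Mesenchyme markers, from the tissue that makes Fgf10, summed to 2862 and 2789 CPM in the mutant libraries, against 2635 and 2441 CPM in the wild-type libraries. Of 12 such genes 2 rose (Prrx1 0.49, a transcription factor of limb mesenchyme, and Col1a2 0.48, a collagen I chain) and 5 fell (Prrx2 -0.39, Twist1 -0.48, Msx1 -0.84, Lhx9 -0.42 and Hand2 -0.48, all transcription factors). Their median was -0.31, with 5 of the 12 above 0, and 7.16% of all genes were called. Prrx1, Col1a2 and Pdgfra, the highest of the 12 in each library, weigh most in the sums. Pdgfra (0.09) was not called and was named after its value was seen. Without mutant replicate 2 the edgeR adjusted p was 0.0546 for Prrx1, 0.288 for Prrx2, 0.104 for Twist1, 0.237 for Lhx9 and 0.181 for Hand2. Without mutant replicate 1 it was 0.0635 for Prrx2 and 0.138 for Col1a2. Markers of other cell types moved with genotype as well. Neuron and Schwann cell markers summed to 22.3 and 22.5 CPM in the mutant libraries, against 43.8 and 48.4 CPM in the wild-type libraries, with 0 risen and 2 fallen of 9 (Tubb3 -1.54 and Stmn2 -1.57). Muscle markers summed to 89.5 and 106.7 CPM in the mutant libraries, against 124.8 and 147.7 CPM in the wild-type libraries, with 0 risen and 1 fallen of 9 (Actc1 -0.87).

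Blood-borne and vascular markers were higher or mixed, beside the 7.16% called among all genes. Macrophage markers summed to 74.6 and 72.3 CPM in the mutant libraries, against 48.5 and 58.8 CPM in the wild-type libraries, with 2 risen of 8 (Lyz2 1.19 and Mrc1 0.62) and 0 fallen. Erythroid markers summed to 3014 and 2973 CPM in the mutant libraries, against 2403 and 2317 CPM in the wild-type libraries, with 1 risen of 7 (Hbb-bh1 0.81) and 0 fallen. Endothelial markers summed to 246 and 219 CPM in the mutant libraries, against 205 and 214 CPM in the wild-type libraries, with 1 risen (Flt1 0.69) and 1 fallen (Erg -0.54) of 9. In the neuron, muscle, macrophage and erythroid lists the direction with 0 calls by edgeR had 0 calls by DESeq2 and 0 at an edgeR p below 0.05 before adjustment as well. Each marker of these 5 lists had a count in at least 1 library. The part of any of these cell types in the FGF values was not tested. Leaving out mutant replicate 1 ended the call of Flt1 (log2 fold change 0.43, edgeR adjusted p = 0.354), which was also lost without wild-type replicate 2 (0.0835) and with library size only (0.0708), and that of Erg ended without mutant replicate 2 (0.0795). Mrc1 had a log2 fold change of 0.37 when wild-type replicate 1 was left out and 0.93 when wild-type replicate 2 was, and an adjusted p of 0.0514 with library size only.

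The genes on either side of each member were examined for a change of the whole stretch. The 2 protein-coding genes on each side, by their order in RefSeq, gave 36 positions, of which 28 were tested. Among them 2 rose and 1 fell, beside the 7.16% called among all genes, and their log2 fold changes ran between -0.36 and 0.62. Around Fgf4, Ano1 had 0.22, Fgf15 0.18 and Oraov1 -0.03, none of them called, and Fgf3 had 5 and 5 reads in the mutant libraries and 0 and 2 in the wild-type libraries, too few to be tested. The called neighbours were Mgea5 beside Fgf8 (0.31, adjusted p = 0.0477), Fam160b2 beside Fgf17 (0.62, adjusted p = 0.0485) and Mrps30 beside Fgf10 (-0.36, adjusted p = 0.0489), all by edgeR and all close to the threshold. None of these 3 calls held without wild-type replicate 2, where the edgeR adjusted p was 0.0534 for Mgea5, 0.123 for Fam160b2 and 0.118 for Mrps30. Without mutant replicate 1 it was 0.328 for Mgea5 and 0.151 for Mrps30, and without mutant replicate 2 it was 0.331 and 0.354 for the same genes. Fam160b2 had a log2 fold change of 0.95 when wild-type replicate 1 was left out and 0.35 when wild-type replicate 2 was. Fgf3, Fgf15, Ano1, Oraov1, Mgea5, Fam160b2 and Mrps30 were named after their values were seen.

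Finally, genes with the most similar profile over the 5 libraries were listed, by the Euclidean distance of centred log2 levels among 16737 other genes. For Fgf8 these were Lix1 (distance 0.16), Tmem100 (0.27) and 4933436C20Rik (0.35). Lix1, which is expressed in early limb buds, measured 347 and 359 CPM in the mutant libraries, against 178 and 161 CPM in the wild-type libraries, and 559.7 CPM at E10.5. For Fgf10 they were Gm13152 (0.09), Fam49a (0.10) and Hpdl (0.11), and for Fgf4 Kcnj12 (0.72), Ppp2r2c (0.72) and Foxs1 (1.14). Kcnj12 measured 0.384 and 0.311 CPM in the mutant libraries and Foxs1 0.234 and 0.373 CPM, and both had 0 reads in the wild-type libraries. Ppp2r2c, a phosphatase subunit, measured 3.68 and 2.90 CPM in the mutant libraries, 0.399 and 0.215 in the wild-type libraries and 2.68 at E10.5.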

How the data were processed

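The deposited tables hold raw counts for each gene symbol. HTSeq is named for their making, beside TopHat2 2.0.13, Cufflinks 2.1.1 and SAMtools with the mm9 genome, per the submitters' processing notes. Libraries were strand-specific and depleted of ribosomal RNA, per the labels' protocols. The strand setting and annotation of the counting are not given in the sources used here, so reads of the lncRNA genes that RefSeq places over Fgf17 and Fgfr1 cannot be told apart from theirs. The 5 HTSeq total lines were left out. Reads assigned to no feature made up 24.3% to 39.6% of the lines' sum, and reads without a unique alignment 9.10% to 14.8%.

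Mutant and wild type were compared over 16166 genes that passed filterByExpr (minimum count 10, minimum total 15), with TMM scaling and quasi-likelihood testing in edgeR 4.0.16 (R 4.3.3, older estimate, genotype as the only term) and Benjamini-Hochberg adjustment over all genes. CPM values are plain counts scaled to the library's gene reads. The TMM factor was 0.872 for the E10.5 library and 1.01 to 1.05 for the E11.5 libraries. Beside the E11.5 libraries, E10.5 levels therefore stand lower in CPM than after TMM scaling. Stage differences covered 16738 genes, with TMM scaling and a prior count of 2 before taking log2. Poisson intervals cover counting error only. Scripts were tested on simulated data. Replicates of a genotype differed beyond sampling noise (chi-square per degree of freedom 12.4 for mutant and 29.6 for wild type).

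The genes and lists were chosen with earlier results of these data known. Named genes are the 9 members, the members of each other list past adjusted p 0.05, the 3 nearest profiles for Fgf4, Fgf8 and Fgf10, and the targeted genes Hoxa13 and Hoxd13. Other genes given with values are marked as chosen after their values were seen. In the list of upstream genes 1 further gene is not reported here. Promoters and neighbours come from RefSeq (GRCm38.p6), used by name. Alternatives were DESeq2 1.42.0 (test or size factors), library size only, no filter, the newer edgeR estimate, all 5 libraries in the fit, a replicate block, a prior count of 0.5, and each E11.5 library left out.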

Additional observations from a re-analysis of the deposited data

How the results depend on the processing

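Over the 11 alternatives of the genotype comparison no member changed sign. Fgf4 (log2 fold change 3.84 to 4.29), Fgf8 (0.92 to 1.21) and Fgf10 (-0.70 to -0.66) passed the test in all 11. Fgf17 (1.22 to 1.68) and Fgfr2 (-0.54 to -0.33) passed in 10, not without mutant replicate 1, and Fgf18 (0.11 to 0.84) passed in 1, without wild-type replicate 2. Fgf9 (0.20 to 0.43), Fgfr1 (0.12 to 0.34) and Fgfr3 (-0.21 to -0.15) passed in 0. With each library left out in turn, 2 to 4 members were higher and 1 to 2 lower in the mutant, and among all genes 399 to 1052 were higher and 366 to 805 lower. The 399 came without mutant replicate 1 and the 1052 without wild-type replicate 1. Without a filter on low counts, 959 genes were higher in place of 617. The cause of these shifts was not tested.

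The mutant and wild-type replicates share only a number: the correlation of their deviations was -0.08. The fit with the replicate number as a block called 676 genes higher and 576 lower, with the same 3 members higher and 2 lower. The stage calls named the same members under each alternative run. With 20 and 23 Fgf4 reads in the wild-type libraries, counting error limits the size of its fold change.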
